A study of Mus musculus with 3 samples.

Results

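The 34 genes described here serve antibody-secreting plasma cells and the endoplasmic reticulum (ER) through which secreted proteins pass. They were chosen by name: 8 mark plasma cell identity and 26 encode ER machinery or ER stress signalling. Named probes on the array covered 22908 genes, among them all 34. Testing was limited to genes whose signal exceeded background clearly (the scanner software's flag) in 1 or more tumours, which held for 15240 genes and for 33 of the 34. Fkbp11, an ER prolyl isomerase, was not well above background in any tumour (0.0334 and 0.0136 units in LSD1 tumours 2 and 3, against 0.0257 units in the p53 tumour, in the scale explained below) and is left out of the counts.

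RNA came from splenic tumours of male mice aged 10 weeks, with 1 array per tumour. The groups compared were LSD1 × p53+/− with 2 tumours, labelled #2 and #3 and called LSD1 tumours 2 and 3 here, and p53+/− with 1 tumour, called the p53 tumour. All 3 tumours are labelled p53+/−, so the comparison concerns the added LSD1 element, and the labels used here do not say what that element is, which promoter drives it, or whether the numbers name mice or lines. Isolated splenic cells were used without treatment, per the labels.

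Plasma cells are the end stage of the B lymphocyte lineage. The transcription factors IRF4, BLIMP1 (Prdm1) and XBP1 direct their formation, and their expanded ER folds and exports antibody. When unfolded protein builds up in the ER, the sensors IRE1 (Ern1), ATF6 and PERK start the unfolded protein response: IRE1 splices the Xbp1 transcript, ATF6 is cut into a transcription factor, and PERK signalling raises ATF4. The response raises chaperones, folding enzymes and the proteins that pull misfolded chains out for degradation. Most cells use this machinery, and plasma cells use it heavily.

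XBP1 and ATF6 act on many such genes through the ER stress response element (ERSE), which joins a CCAAT box to CCACG over a spacer of 9 bases. Promoters from RefSeq (build GRCm38.p6, 250 bases before to 50 after the start site) were at hand for 29 members, 7 of them plasma cell identity genes and 22 ER genes. The letters CCAAT, 9 bases of any kind, then CCACG were found on either strand in 9 of the 22 ER promoters and in none of the 7 plasma cell identity promoters, against 39 of all 32851 promoters in the table (0.119%). The 10 matches are shown so that the genes that carry them can be followed through the results; known targets of the response are also found among members without a match in this window. Each is written in the orientation of the element, with the fixed letters in capitals.
Calr: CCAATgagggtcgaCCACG
Canx: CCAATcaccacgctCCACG
Creld2: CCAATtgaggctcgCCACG
Derl3: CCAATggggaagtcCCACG
Dnajc3: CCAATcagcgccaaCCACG
Hsp90b1, first match: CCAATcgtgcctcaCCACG
Hsp90b1, second match: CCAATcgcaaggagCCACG
Hspa5: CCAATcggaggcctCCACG
Pdia6: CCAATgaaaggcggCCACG
Syvn1: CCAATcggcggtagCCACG
A shorter variant, ERSE-II (ATTGG, 1 base of any kind, then CCACG), was found in the promoter of Herpud1 alone among the 29 and in 0.0365% of all promoters. No ERSE and ERSE-II match overlapped, since no member held both.
Herpud1: ATTGGgCCACG
A match describes letters in this window only and shows no binding. Searches for the XBP1 element TGACGTGG (0.676% of all promoters), the octamer ATTTGCAT of antibody genes (1.74%) and the ATF4 and CHOP element TGATGCAAT (0.192%) gave no match in the 29.

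Whole promoters are given for Hspa5, the best known target of the response, and for Derl3 and Creld2, the ERSE-bearing members furthest from the p53 tumour in opposite directions. They run 5′ to 3′ on the strand of the gene, with the fixed ERSE letters in capitals. For Derl3 and Creld2 the element lies on the opposite strand and reads as its reverse complement. Hspa5 occupies chr2:34771840-34772139 (plus strand), Derl3 chr10:75893148-75893447 (plus strand) and Creld2 chr15:88819396-88819695 (plus strand).
Hspa5: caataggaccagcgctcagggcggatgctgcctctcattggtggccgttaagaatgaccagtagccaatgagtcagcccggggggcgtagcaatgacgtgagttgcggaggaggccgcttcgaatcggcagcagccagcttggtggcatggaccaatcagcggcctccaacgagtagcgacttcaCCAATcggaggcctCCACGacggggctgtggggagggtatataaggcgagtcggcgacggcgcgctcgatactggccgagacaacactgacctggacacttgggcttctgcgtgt
Derl3: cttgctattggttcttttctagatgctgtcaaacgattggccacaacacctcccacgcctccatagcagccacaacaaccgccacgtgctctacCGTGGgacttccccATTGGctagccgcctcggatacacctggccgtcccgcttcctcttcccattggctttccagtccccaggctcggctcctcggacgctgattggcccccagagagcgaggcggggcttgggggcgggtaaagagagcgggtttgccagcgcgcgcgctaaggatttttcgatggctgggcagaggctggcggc
Creld2: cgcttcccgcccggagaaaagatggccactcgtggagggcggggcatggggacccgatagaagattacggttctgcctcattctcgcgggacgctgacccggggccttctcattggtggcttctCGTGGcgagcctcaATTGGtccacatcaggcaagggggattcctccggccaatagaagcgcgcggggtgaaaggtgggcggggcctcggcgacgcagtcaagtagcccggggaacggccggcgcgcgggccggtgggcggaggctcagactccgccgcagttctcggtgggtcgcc
The element begins 65 bases before the start site in Hspa5, 156 in Derl3 and 126 in Creld2.

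Signals below are in units of the array's 75th percentile, so 1 unit is the level at that percentile of the non-control spots. Levels are compared between tumours for 1 probe and not between probes. The exception is the summed signals of marker lists, which add probes, so that bright probes weigh most. The authors' values, given beside some results, are the same processed signals times 1 factor per array. Within a tumour they shift every log2 difference by the same amount, and they put the medians of all genes at -0.16 and -0.20. Signs and 2-fold counts that change by the authors' values follow from that shift. The share of spots well above background was 52.8% and 51.5% on the LSD1 arrays and 55.6% on the p53 array, and no spot was saturated. LSD1 tumour 3 and the p53 tumour shared slide 1, while LSD1 tumour 2 was alone on slide 2, so LSD1 tumour 3 minus the p53 tumour is the within-slide value, and slide and tumour cannot be told apart for LSD1 tumour 2. Markers of splenic cells were present: all 10 B cell and all 10 T cell markers tested were well above background in the p53 tumour. Kdm1a, which encodes LSD1, had 6.57 and 4.91 units in LSD1 tumours 2 and 3, against 4.20 units in the p53 tumour, and Trp53 had 0.748 and 0.916 units, against 1.13 units.

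Plasma cell identity genes had a median difference from the p53 tumour of -2.22 log2 units in LSD1 tumour 2, where all 8 lay below it. In LSD1 tumour 3 their median difference was -0.56, and 6 of 8 lay below. The medians of all 15240 genes were 0.05 and 0.16. Of these genes 8072 lay above the p53 tumour in LSD1 tumour 2 and 8855 in LSD1 tumour 3, to be set beside each such count below. With quantile normalization 7475 and 8074 did, and by the authors' values 6286 and 5999. By size, 7 of the 8 were lower by 2-fold or more in LSD1 tumour 2, where 11.5% of all genes were. In LSD1 tumour 3 this was so for 3 of the 8, Sdc1, Tnfrsf17 and Jchain, and for 11.5% of all genes; over all 33 members that count was 3, against 1 with normexp background correction and 7 by the authors' values. None was 2-fold higher in either, against 11.7% and 15.2% of all genes. Both differences share the p53 array and are not independent of each other.

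**Figure D1:**
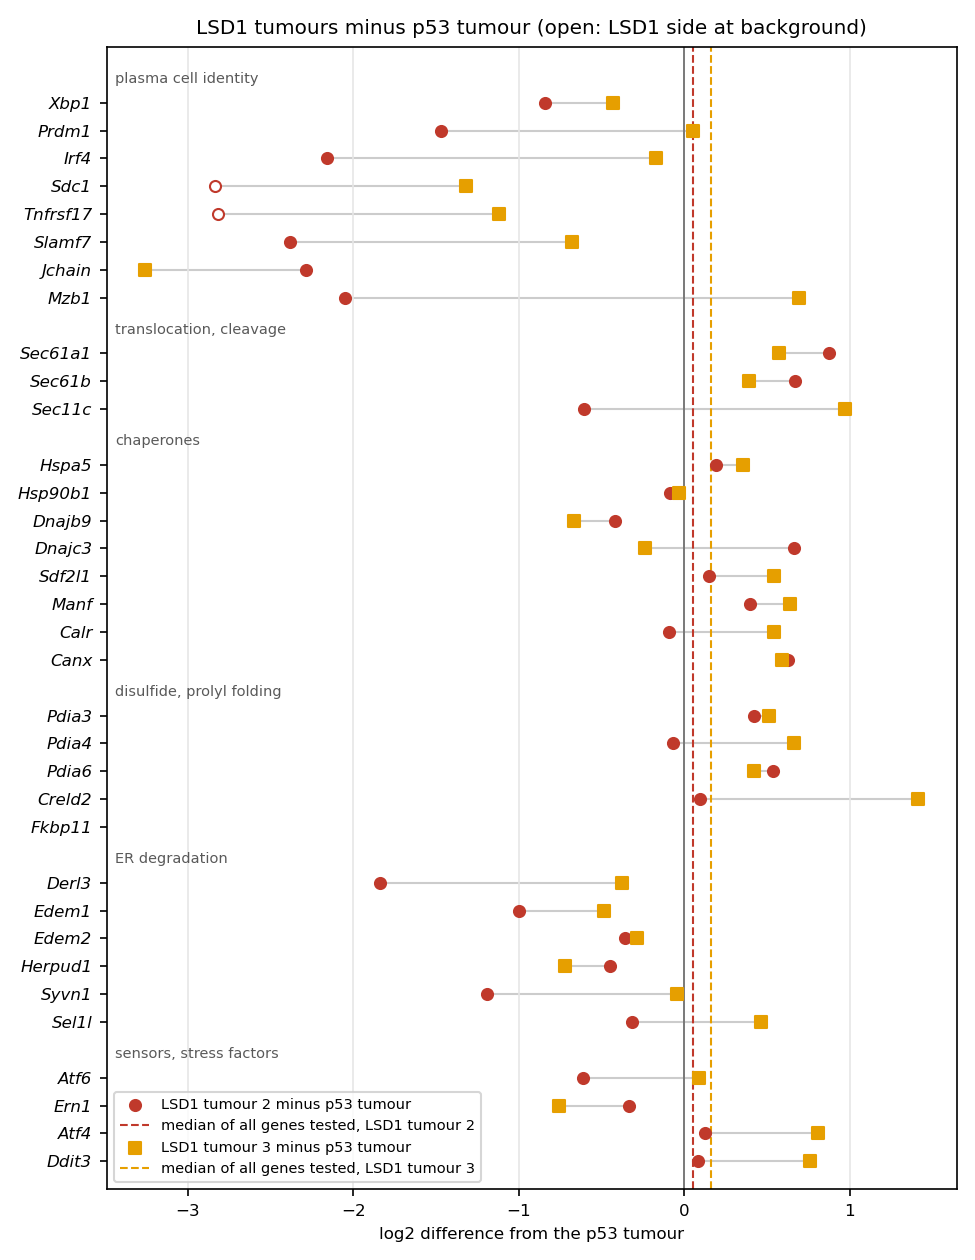
Difference of LSD1 tumour 2 (red circles) and LSD1 tumour 3 (orange squares) from the p53 tumour on a log2 scale for each member tested, ordered by role, with dashed lines at the median of all 15240 genes (0.05 and 0.16); open symbols mark an LSD1 signal not well above background. In LSD1 tumour 2 all 8 plasma cell identity genes and all 6 ER degradation genes lie left of 0, whereas folding and translocation genes lie on both sides.

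Among the products and surface proteins of plasma cells, Jchain, the joining chain that links secreted IgM and IgA into polymers, had the lowest mean difference over the LSD1 tumours, although Sdc1, Tnfrsf17 and Slamf7 lay lower than Jchain in LSD1 tumour 2. Its signal was 15.7 units in LSD1 tumour 2 and 7.99 units in LSD1 tumour 3, against 76.2 units in the p53 tumour. Both LSD1 tumours lay well below the p53 tumour, 4.87-fold and 9.55-fold lower. The mean difference was -2.77 ± 0.67 log2 units (limma SE, n = 2 and 1), with an unadjusted p of 0.0215 and an adjusted p of 0.967, so it did not pass the threshold of 0.05. It was the one member with an unadjusted p under 0.05, which 1.15% of all genes had in the upward and 2.58% in the downward direction.

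Mzb1, an ER protein of marginal zone B cells and plasma cells that assists antibody assembly, did not follow Jchain. It had 3.50 units in LSD1 tumour 2 and 23.4 units in LSD1 tumour 3, against 14.5 units in the p53 tumour. The p53 tumour thus lay between the LSD1 tumours, which were 6.69-fold apart, the widest gap among the 33 members. The difference from the p53 tumour was -2.05 log2 units in LSD1 tumour 2 and 0.69 in LSD1 tumour 3 (limma adjusted p = 0.982).

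Sdc1 encodes syndecan-1 (CD138), the surface proteoglycan by which plasma cells are commonly recognised. Its signal was 0.0620 units in LSD1 tumour 2 and 0.177 units in LSD1 tumour 3, against 0.442 units in the p53 tumour. These are the signals of its brightest probe, which was not well above background in LSD1 tumour 2 and was 2.50-fold lower in LSD1 tumour 3 (limma adjusted p = 0.967). The 3 Sdc1 probes did not all point one way: the second probe, well above background in all 3 tumours, differed by -1.78 and -0.54 log2 units, while the third was well above background in LSD1 tumour 2 alone and differed by 2.61 and 0.23. Averaged over its probes, the Sdc1 difference was -0.67 in LSD1 tumour 2 and -0.54 in LSD1 tumour 3.

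Tnfrsf17 encodes BCMA, a survival receptor of plasma cells for BAFF and APRIL. It had 0.0488 units in LSD1 tumour 2 and 0.158 units in LSD1 tumour 3, against 0.344 units in the p53 tumour. LSD1 tumour 2 was not well above background and lay at least 4.98-fold lower, and LSD1 tumour 3 lay 2.18-fold lower (limma adjusted p = 0.967). With normexp background correction, which shrinks dim signals, the difference in LSD1 tumour 2 was -1.52 log2 units for Tnfrsf17, short of that bound, which therefore holds for the scaling used here, and -1.62 for the brightest Sdc1 probe. Slamf7, a receptor also found on NK cells and other leukocytes, had 0.206 units in LSD1 tumour 2 and 0.669 units in LSD1 tumour 3, against 1.07 units in the p53 tumour. Both LSD1 tumours were lower, 5.21-fold and 1.60-fold (limma adjusted p = 0.967).

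For each of the 3 transcription factors, LSD1 tumour 2 was the lower of the LSD1 tumours. Irf4, which acts in plasma cells and also in activated T cells and dendritic cells, had 0.612 units in LSD1 tumour 2 and 2.43 units in LSD1 tumour 3, against 2.73 units in the p53 tumour. Prdm1, which shuts off the B cell programme, had 0.292 and 0.838 units in LSD1 tumours 2 and 3, against 0.807 units in the p53 tumour. Xbp1 had 13.3 and 17.7 units, against 23.8 units in the p53 tumour. The distance from the p53 tumour in LSD1 tumour 2 was -2.16 log2 units for Irf4, -1.47 for Prdm1 and -0.84 for Xbp1, and in LSD1 tumour 3 it was -0.17, 0.05 and -0.43 (limma adjusted p between 0.967 and 0.972). The small Prdm1 difference in LSD1 tumour 3 had the other sign in the authors' value table (-0.31). All 3 Xbp1 probes were lower in both LSD1 tumours, with differences of -0.84, -0.65 and -0.48 log2 units in LSD1 tumour 2, and of -0.43, -0.25 and -0.20 in LSD1 tumour 3. The array does not separate spliced from unspliced Xbp1 in what is used here.

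**Figure D2:**
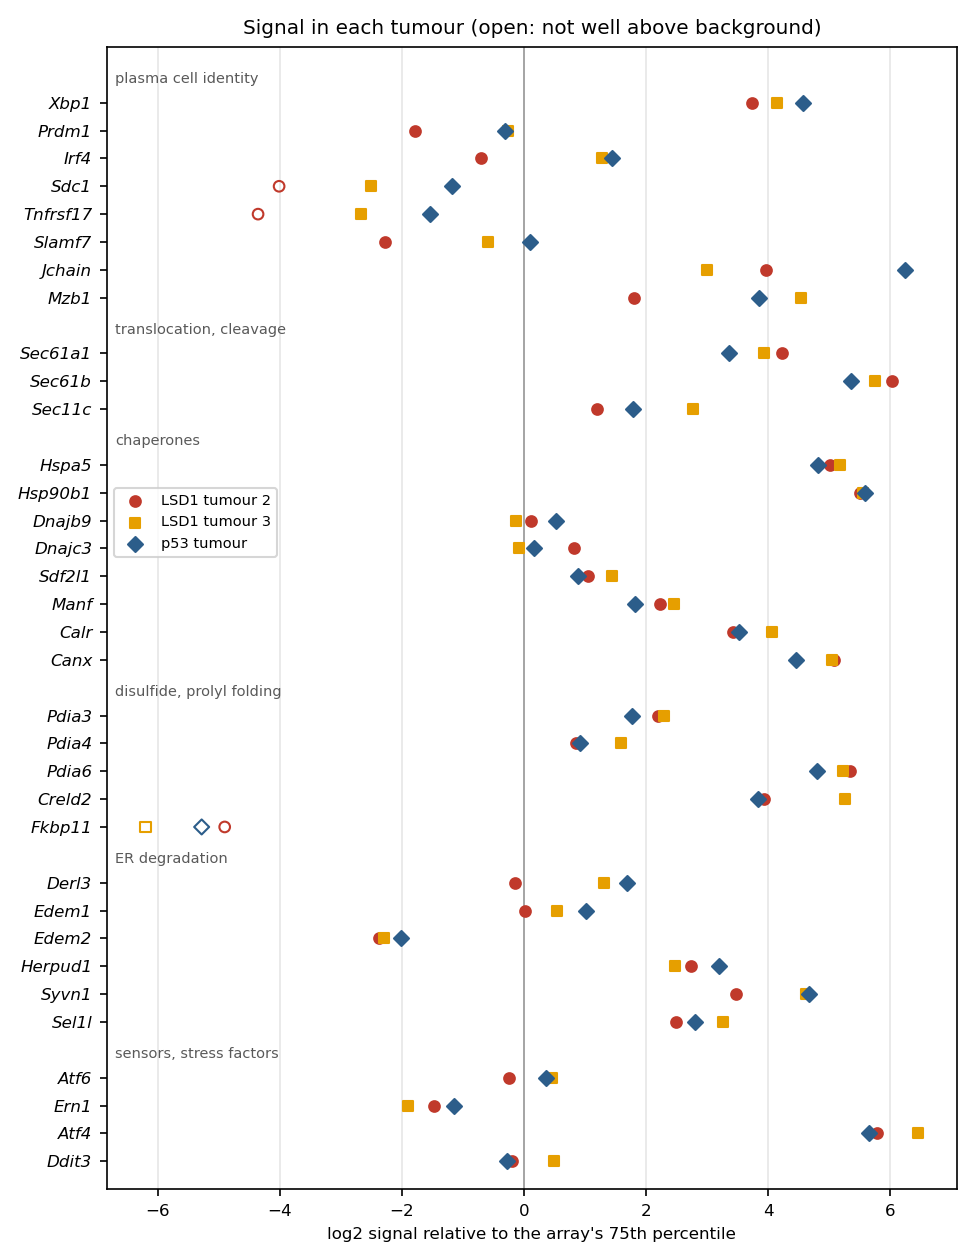
Signal of each member in LSD1 tumour 2 (red circles), LSD1 tumour 3 (orange squares) and the p53 tumour (blue diamonds), as log2 relative to the 75th percentile of the array; open symbols were not well above background. For Jchain both LSD1 tumours sit far left of the p53 tumour, for Mzb1 the p53 tumour sits between them, and for Hsp90b1 the 3 tumours lie within 1.06-fold at this scaling.

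ER genes as a whole lay near the p53 tumour. The 25 tested had a median difference of -0.07 log2 units in LSD1 tumour 2 and 0.42 in LSD1 tumour 3, next to 0.05 and 0.16 for all genes. The median in LSD1 tumour 3 was -0.00367 with quantile normalization and 0.06 by the authors' values. Derl3 and Syvn1, 2 of the 25, were lower by 2-fold or more in LSD1 tumour 2 (11.5% of all genes), and no ER gene was in LSD1 tumour 3 (11.5%). No ER gene was higher by that much in LSD1 tumour 2 (11.7% of all genes), and Creld2 alone was in LSD1 tumour 3 (15.2%). limma called 0 of the 33 members and 0 of 15240 genes (0%) at an adjusted p of 0.05, with 568 genes at an unadjusted p under 0.05. In 11 of 33 members both LSD1 tumours lay above the p53 tumour and in 14 both lay below it, where 38.9% and 27.8% of all genes did.

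Of the 8 chaperones and their helpers, 5 lay above the p53 tumour in each LSD1 tumour, next to 8072 and 8855 of all 15240 genes. Their medians were 0.17 and 0.45 log2 units (-0.03 and -0.07 with quantile normalization, and -0.04 and 0.09 in the authors' value table). Hspa5 encodes BiP, the main HSP70 chaperone of the ER and the keeper of the sensors. It had 32.4 units in LSD1 tumour 2 and 36.3 units in LSD1 tumour 3, against 28.4 units in the p53 tumour, differences of 0.19 and 0.36 log2 units whose sign turned with quantile normalization (-0.15 and -0.20) and in the authors' values (-0.02 and -0.01). Its other probes gave 0.00 and -0.07 in LSD1 tumour 2, and -0.06 and 0.15 in LSD1 tumour 3, so no direction held for BiP. Hsp90b1, the ER HSP90 (GRP94), lay close to the p53 tumour at this scaling, with 45.3 units in LSD1 tumour 2 and 47.0 units in LSD1 tumour 3, against 48.1 units in the p53 tumour. Its differences of -0.09 and -0.03 log2 units became -0.37 and -0.48 with quantile normalization, and -0.30 and -0.40 by the authors' values.

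The lectin chaperone gene Canx (calnexin), which holds glycoproteins while they fold, was higher in both LSD1 tumours, with 33.98 and 33.1 units, against 22.0 units in the p53 tumour. Both Canx probes gave 0.59 to 0.63 log2 units in each, but the differences were 0.30 and 0.0494 with quantile normalization, and 0.41 and 0.22 by the authors' values. Its soluble relative Calr (calreticulin) had 10.8 units in LSD1 tumour 2 and 16.8 units in LSD1 tumour 3, against 11.5 units in the p53 tumour. At this scaling LSD1 tumour 3 was the further from the p53 tumour, whereas LSD1 tumour 2 was with quantile normalization (-0.31 in LSD1 tumour 2, 0.0835 in LSD1 tumour 3) and by the authors' values (-0.31 and 0.18). Manf, a secreted ER stress protein, differed by 0.40 and 0.64 log2 units (0.19 and 0.28 by the authors' values), and Sdf2l1, a cofactor of BiP, by 0.15 and 0.54, the first of these with the opposite sign in the authors' value table (-0.06). The J-domain helpers of BiP split: Dnajb9 differed by -0.42 and -0.67 log2 units and Dnajc3 by 0.66 and -0.24. No chaperone difference passed limma's test (adjusted p between 0.967 and 0.993).

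The folding enzymes lay above the p53 tumour in LSD1 tumour 3 in 4 of 4 tested, with a median of 0.59 log2 units, and in 3 of 4 in LSD1 tumour 2, with a median of 0.26. With quantile normalization the medians were 0.37 in LSD1 tumour 3, with 3 of 4 above, and 0.0375 in LSD1 tumour 2, with 2 of 4 above, and by the authors' values they were 0.22 with 4 above and 0.0428 with 2 above. Creld2, a secreted ER stress protein with disulfide isomerase activity, led them. It had 15.3 units in LSD1 tumour 2 and 38.2 units in LSD1 tumour 3, against 14.3 units in the p53 tumour. LSD1 tumour 3 stood alone at 2.67-fold higher, while LSD1 tumour 2 was within 1.07-fold of the p53 tumour and turned sign with quantile normalization (-0.14) and in the authors' values (-0.12). The 2-fold call in LSD1 tumour 3 was lost with quantile normalization (0.91 log2 units). The disulfide isomerases Pdia3, which works with the lectin chaperones, Pdia4 and Pdia6 had differences of 0.42, -0.07 and 0.53 log2 units in LSD1 tumour 2. In LSD1 tumour 3 these were 0.51, 0.66 and 0.42, that of Pdia6 with the opposite sign under quantile normalization (-0.13).

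Genes of entry into the ER lay above the p53 tumour in 2 of 3 in LSD1 tumour 2 and in 3 of 3 in LSD1 tumour 3 (2 of 3 with quantile normalization). Sec61a1, the pore of the translocon, had 18.8 units in LSD1 tumour 2 and 15.3 units in LSD1 tumour 3, against 10.3 units in the p53 tumour. Its other probes gave smaller differences, 0.21 and 0.42 log2 units in LSD1 tumour 2 and -0.25 and -0.01 in LSD1 tumour 3, so the direction in LSD1 tumour 3 depends on the probe. The probe used differed by 0.87 and 0.57, the second of these falling to 0.14 with quantile normalization and 0.21 by the authors' values. Sec61b, a small subunit of the same channel, differed by 0.67 and 0.39 log2 units, turning to -0.05 in LSD1 tumour 3 with quantile normalization. Sec11c, a catalytic subunit of the signal peptidase that cuts signal peptides, had 2.28 units in LSD1 tumour 2 and 6.79 units in LSD1 tumour 3, against 3.47 units in the p53 tumour. The p53 tumour lay between the LSD1 tumours for Sec11c, as it did for Mzb1.

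ER degradation was the role in which members lay lowest after plasma cell identity. All 6 genes were below the p53 tumour in LSD1 tumour 2, with a median of -0.72 log2 units, and 5 of 6 in LSD1 tumour 3, with a median of -0.33. The same counts were found under normexp, quantile normalization and the authors' value table. The 13 further degradation genes described below did not share this direction. Of these, 7 lay above the p53 tumour in LSD1 tumour 2 and 12 in LSD1 tumour 3. Derl3, a derlin of the membrane channel that is prominent in secretory cells, had 0.901 units in LSD1 tumour 2 and 2.48 units in LSD1 tumour 3, against 3.23 units in the p53 tumour. Syvn1, the ubiquitin ligase HRD1, had 11.1 units in LSD1 tumour 2 and 24.6 units in LSD1 tumour 3, against 25.4 units in the p53 tumour. For both genes LSD1 tumour 2 was the tumour set apart, 3.58-fold and 2.29-fold below the p53 tumour, while LSD1 tumour 3 was 1.30-fold and 1.03-fold below it.

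Edem1 and Edem2, mannosidase-like proteins that mark misfolded glycoproteins, differed in LSD1 tumour 2 by -0.997 and -0.36 log2 units, and in LSD1 tumour 3 the values were -0.48 and -0.28. The second Edem1 probe differed by -0.34 in LSD1 tumour 2 but by 0.73 in LSD1 tumour 3, where the mean of the probes was 0.12. Herpud1, an ER membrane protein that gathers the ligase complex, differed by -0.45 and -0.72 log2 units, and its second probe pointed the same way. Sel1l, the adaptor of HRD1, differed by -0.31 in LSD1 tumour 2 and 0.46 in LSD1 tumour 3. Its partner Syvn1 therefore lay below the p53 tumour in LSD1 tumour 3 by a little (-0.04), while Sel1l lay above it.

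**Figure D3:**
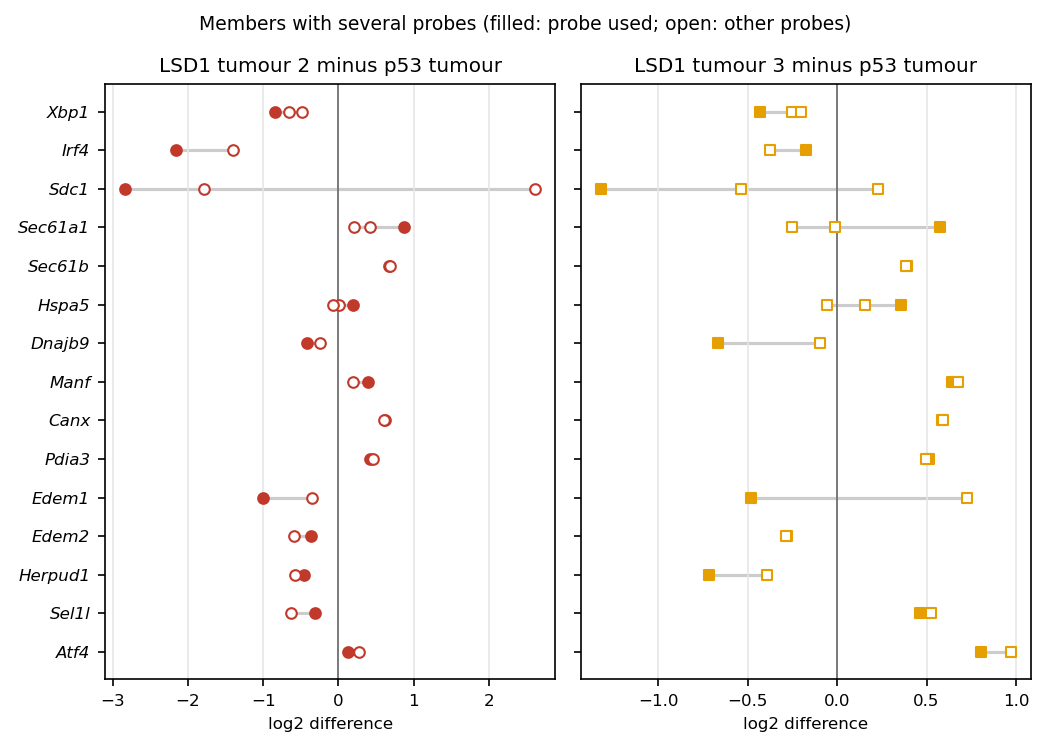
Log2 difference from the p53 tumour by probe for the 15 members with more than 1 probe above background, in LSD1 tumour 2 (left panel) and LSD1 tumour 3 (right panel); filled symbols are the probe used and open symbols the others. All probes of a gene pointed one way for 13 of 15 members in LSD1 tumour 2 and for 11 of 15 in LSD1 tumour 3, and the Sdc1 probes are the furthest apart.

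The sensors and the stress factors behind them differed between the LSD1 tumours. Atf4, the transcription factor of PERK signalling, had 55.2 units in LSD1 tumour 2 and 88.3 units in LSD1 tumour 3, against 50.5 units in the p53 tumour, and Ddit3 (CHOP), its target in prolonged stress, had 0.877 and 1.40 units, against 0.828 units. LSD1 tumour 3 was the high tumour for both, at 1.75-fold and 1.69-fold, or 0.81 and 0.76 log2 units. With quantile normalization these became 0.45 for Atf4 and 0.72 for Ddit3. The differences in LSD1 tumour 2 were 0.13 and 0.08 log2 units and turned sign in the authors' values (-0.09 and -0.13), that of Atf4 also with quantile normalization (-0.12). The sensors did not go with them: Ern1 differed by -0.34 and -0.76 log2 units and Atf6 by -0.61 and 0.09, the value in LSD1 tumour 3 turning to -0.00367 with quantile normalization and to -0.28 in the authors' values.

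The members that carry an ERSE match did not form a group apart. The 9 had median differences of 0.09 log2 units in LSD1 tumour 2 and 0.36 in LSD1 tumour 3, with 5 of 9 above the p53 tumour in each. The 12 ER genes tested whose promoter held no ERSE match, among them Herpud1 with its ERSE-II match, had medians of -0.19 and 0.43. Within the 9 the range was wide, from Derl3 at -1.84 to Dnajc3 at 0.66 in LSD1 tumour 2, and from Derl3 at -0.38 to Creld2 at 1.41 in LSD1 tumour 3. Derl3 and Creld2, whose promoters are printed above, were thus 2-fold apart from the p53 tumour in opposite directions and in different tumours.

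Set against each other, the LSD1 tumours differed by 2-fold or more in 10 of 33 members. All 10 were lower in LSD1 tumour 2, as were 14% of all genes, and of these 6 were plasma cell identity genes and 4 were ER genes, namely Derl3, Sec11c, Creld2 and Syvn1. No member was higher by that much in LSD1 tumour 2, against 11.1% of all genes. Jchain alone among the 8 identity genes was lower in LSD1 tumour 3, by 1.96-fold. These counts rest on 1 array each and carry no test.

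Other genes of the same pathways were read from lists chosen by name. Of 12 further plasma cell genes tested, 9 lay below the p53 tumour in LSD1 tumour 2 (median -0.89) and 5 in LSD1 tumour 3 (median 0.15, turning to -0.35 with quantile normalization and to -0.22 in the authors' values). Tnfrsf13b (TACI), a second receptor for BAFF and APRIL, had 0.239 units in LSD1 tumour 2 and 0.586 units in LSD1 tumour 3, against 0.931 units in the p53 tumour. Ccr10, a homing receptor of IgA plasma cells, differed by -0.82 log2 units in LSD1 tumour 2 and in LSD1 tumour 3 lay at least 2.33-fold below the p53 tumour. Of the 13 genes on the antibody list, none of the heavy and light chain genes had a named probe, so their levels were not analysed here. Only Igll1, listed beside them, had a named probe, which was not well above background.

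Further folding and translocation genes lay mostly above the p53 tumour, 22 of 28 in LSD1 tumour 2 (median 0.28) and 24 of 28 in LSD1 tumour 3 (median 0.49). With quantile normalization these counts were 18 and 17, as they were in the authors' values, and the medians lay between 0.0691 and 0.14 in both. Relative to the median of all genes, the list medians were 0.23 and 0.33 by the authors' values, as at the main scaling, and 0.13 and 0.10 with quantile normalization. Rpn1, of the complex that attaches glycans, had 32.6 units in LSD1 tumour 2 and 27.2 units in LSD1 tumour 3, against 15.6 units in the p53 tumour. Ero1b, the ER oxidase prominent in secretory cells, went the other way, with 0.255 units in LSD1 tumour 2 and 0.846 units in LSD1 tumour 3, against 0.970 units in the p53 tumour. Of 13 further degradation genes, 7 lay above the p53 tumour in LSD1 tumour 2 (median 0.10; 5 with quantile normalization and 3 by the authors' values) and 12 in LSD1 tumour 3 (median 0.59; 9 with a median of 0.30 with quantile normalization, and 8 with a median of 0.23 by the authors' values), with Derl1 at 0.12 and 1.31 log2 units and Erlec1 at 0.68 and 0.49.

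The further stress genes, sensors and targets of ATF4, differed among themselves. The 2 furthest from the p53 tumour on average were Psat1 and Trib3. Psat1, an enzyme of serine synthesis, had 12.5 units in LSD1 tumour 2 and 6.18 units in LSD1 tumour 3, against 1.82 units in the p53 tumour. Trib3, a pseudokinase raised by ATF4 and CHOP, had 1.45 and 0.460 units, against 0.197 units. Both LSD1 tumours lay above the p53 tumour for both genes, by 2.78 and 1.76 log2 units for Psat1 and by 2.88 and 1.22 for Trib3 (limma adjusted p = 0.967 for both). The list of 15 as a whole had medians of 0.06 and 0.58 (-0.15 and 0.21 in the authors' value table). In each LSD1 tumour 6 of its genes were higher by 2-fold or more, not all of them the same genes. Of all genes, 11.7% and 15.2% were. Slc7a11, a cystine transporter named after its values were seen, was the 1 gene of the list that lay lower by that much, in LSD1 tumour 3, where it was not well above background and at least 3.05-fold below the p53 tumour. None of the further pathway genes tested was called by limma.

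**Figure D4:**
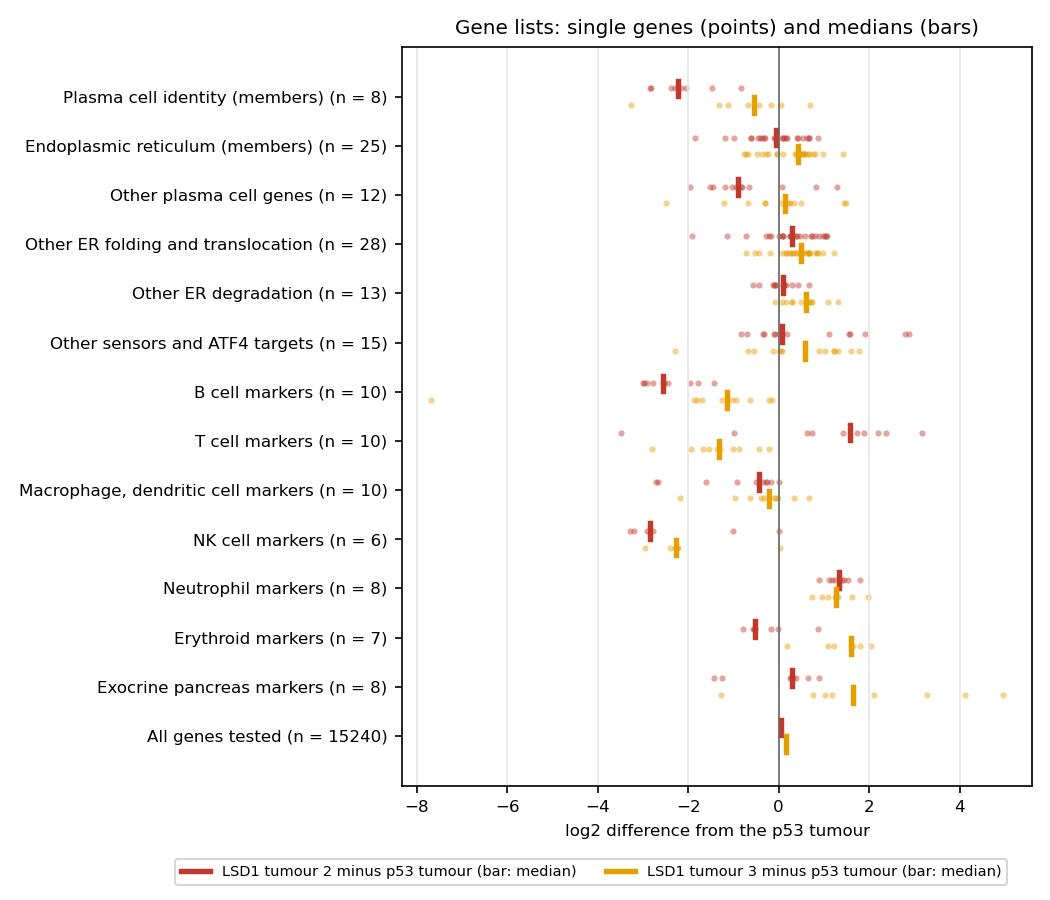
Log2 difference from the p53 tumour for single genes (points) and list medians (bars), LSD1 tumour 2 in red and LSD1 tumour 3 in orange, for the members, the further pathway lists and the cell type markers; all genes tested are shown by their medians alone. In LSD1 tumour 2 the plasma cell identity median (-2.22) lies near those of B cell (-2.55) and NK cell markers (-2.84), away from the ER median (-0.07). In LSD1 tumour 3 these medians are -0.56, -1.14, -2.26 and 0.42, in the same order.

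Markers of other cells differed as well, and their part in the results was not tested. In a bulk sample, fewer cells of a type and less RNA per cell cannot be told apart. All 10 B cell markers lay below the p53 tumour in each LSD1 tumour, with medians of -2.55 and -1.14 log2 units and summed signals of 39.5 and 144 units, against 237 units in the p53 tumour; 1 of the 10, Fcer2a (CD23), was not well above background in LSD1 tumour 3. T cell markers, which bear on Irf4 and Prdm1, had medians of 1.58 and -1.33, with 8 of 10 positive differences in LSD1 tumour 2 against 0 of 10 in LSD1 tumour 3, and summed to 227 and 48.2 units, against 87.0 units. NK cell markers, which bear on Slamf7, had medians of -2.84 and -2.26, with summed signals of 23.1 and 14.9 units, against 35.7 units. Gzma alone gave 20.6 and 4.40 of these units, against 20.5 units, so the sums mostly follow 1 probe. Ncr1, the defining gene of NK cells, was not well above background in either LSD1 tumour.

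Exocrine pancreas cells are secretory and rich in ER, and their markers differed between the tumours. In LSD1 tumour 3 all 8 were well above background and 7 lay above the p53 tumour, with a median of 1.64 log2 units. The exception was Bhlha15, which differed from the p53 tumour by -1.44 log2 units in LSD1 tumour 2 and -1.27 in LSD1 tumour 3. It had 0.203 and 0.228 units, against 0.550 units in the p53 tumour, and was well above background in each. Which cells gave the Bhlha15 signal, pancreas or plasma cells, was not tested. Cpa1 (carboxypeptidase A1) was at least 11.1-fold and Cpb1 at least 4.35-fold higher in LSD1 tumour 3. In LSD1 tumour 2, 4 of the 8 were not well above background, as were 4 in the p53 tumour. The summed signal of the 8 was 12.2 units in LSD1 tumour 2 and 23.9 units in LSD1 tumour 3, against 10.6 units in the p53 tumour. Cela1 alone gave 11.6 and 22.0 of these units, against 9.72 units, so the sums mostly follow 1 probe. Neutrophil markers were above the p53 tumour in 8 of 8 in each LSD1 tumour (medians 1.32 and 1.26), and summed to 296 and 273 units, against 146 units. Erythroid markers had medians of -0.53 and 1.61 and summed to 516 and 1029 units, against 751 units, with Hba-a1 alone at 415 and 686, against 609. Macrophage and dendritic cell markers had medians of -0.43 and -0.21, with 1 and 2 of 10 above the p53 tumour. They summed to 220.1 and 232 units, against 265 units, with 1 Siglech probe at 137 and 124, against 155. The other Siglech probe was well above background in the p53 tumour alone and differed by -3.28 and -3.35 log2 units. Flt3 of the same list differed by -2.68 and -2.18, so its genes did not move alike.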

How the data were processed

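Cy3-labelled cRNA from 0.1 μg total RNA per tumour was hybridised to 1 Agilent array each, per the labels' protocols. Agilent Feature Extraction 11.5.1.1 made the deposited spot intensities, background-subtracted and detrended within an array, per the file headers; flags for signal above background, saturation and outliers were deposited with them. The authors' value table holds these intensities times 1 factor per array (0.779 and 0.902 for LSD1 tumours 2 and 3, 1.06 for the p53 tumour; column medians 54.2, 43.5 and 64.2); what set the factors is not given in the sources used here.

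The processed signal was divided by the array's 75th percentile and taken as log2. Outlier spots were dropped, spots of a probe averaged, and probes named through RefSeq accessions in a table of assembly GRCm38.p6 (32987 of 56605 probes). The array's design uses mm9, so probe positions are not given. The probe with the highest mean stood for a gene. Of the list names, 1 was not matched and 1 was matched by an older symbol.

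limma 3.58.1 in R 4.3.3 compared LSD1 × p53+/− with p53+/− (Benjamini-Hochberg over 15240 genes, threshold 0.05). With 1 residual degree of freedom (3.27 with the prior) the spread of the single p53 array is taken to equal that between the LSD1 arrays. Where nothing says samples are separate animals, p-values measure only the spread between these samples. Differences of at least 2-fold required the brighter side well above background. A bound ("at least") set the dim side at the lowest signal flagged above background on that array, or at the probe's own signal where higher. The limma step was also run on simulated data, the outcome of which is not given here. With 2 arrays against 1, a count of 0 genes called does not show that no gene differed.

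Members and lists were chosen with earlier results of these data known. Named genes were all members, Kdm1a, Trp53 and the 2 genes per list furthest from the p53 tumour on average. Fcer2a and Ncr1 are among these. Gzma, Cela1, Hba-a1, Siglech and Bhlha15 were named in addition, after their values were seen. The number of arrays limits the precision.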

Additional observations from a re-analysis of the deposited data

How the results depend on the processing

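No paired analysis was possible because the genotypes share no replicate number. No gene was called by limma under any of 6 alternatives (lowest adjusted p 0.290, with genes above background on all 3 arrays; 558 to 1756 genes at an unadjusted p under 0.05). The plasma cell identity medians kept their sign under every alternative run. With normexp, members 2-fold lower in LSD1 tumour 3 numbered 1, and 1 was 2-fold higher in LSD1 tumour 2 than in LSD1 tumour 3. With quantile normalization the ER median was -0.00367 in LSD1 tumour 3 and -0.0154 for the mean of the LSD1 tumours (0.23 with the 75th percentile), no member was 2-fold higher in LSD1 tumour 3 (0), 1 was 2-fold higher in LSD1 tumour 2 than in LSD1 tumour 3, and 6 members lay above the p53 tumour in both. In the authors' value table, which moves the medians of all genes to -0.16 and -0.20, 7 members were 2-fold lower in LSD1 tumour 3, 2 were 2-fold higher in LSD1 tumour 2 than in LSD1 tumour 3, 6 lay above the p53 tumour in both, and the ER median was 0.0573 in LSD1 tumour 3 and -0.0643 for the mean. Among genes above background on all 3 arrays, which drops Tnfrsf17 and the Sdc1 probe used, 1 member was 2-fold lower in LSD1 tumour 3. Without a filter the ER median in LSD1 tumour 2 was 0.00819, and with Derl3 and Edem1 counted as plasma cell genes it was 0.0825. The cause of the other changes was not tested. Leaving out LSD1 tumour 2 or 3, which leaves no test, gave ER medians of 0.42 and -0.0662, plasma cell identity medians of -0.56 and -2.22, 18 and 12 members above the p53 tumour, and 15 and 21 below it. Over all 66 member differences and alternatives, no difference of 2-fold or more turned sign, and smaller ones did so in 16 recomputed values, some of them the same difference under several alternatives.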
